A study of Drosophila melanogaster with 72 samples.

Results

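The vacuolar ATPase genes of Drosophila melanogaster are described here: every gene in the table whose symbol starts with Vha, 33 of 15240 genes, each read from the transcript of its own whose mean level was highest. The RNA came from Oregon R males, a wild-type laboratory strain with no allele or transgene named in the labels, as polyA+ RNA from the head, the periphery (the rest of the body) or the heart. Flies fed ad libitum (ALF) on cornmeal molasses agar at 25 °C form the control arm, and the other arm had time-restricted feeding (TRF) and was alternated onto agar and water; the hours of the switch are not stated. Ages were 3, 5 and 7 weeks for head and periphery and 5 weeks for heart, at zeitgeber times (ZT, hours of the light cycle) 0, 6, 12 and 18, with steps of 3 h for the week 5 heads and peripheries. Each combination had 1 library, so libraries of different ZT stand in for replicates, and the labels give no number of flies or batch.

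The vacuolar ATPase is a rotary proton pump. Its cytosolic sector V1 (subunits A to H) hydrolyses ATP, and this turns a ring of subunits c and c'' in the membrane sector V0, which also holds subunits a, d and e and carries protons across the membrane. The pump acidifies lysosomes and endosomes, loads synaptic vesicles in neurons and, in the plasma membrane of insect epithelia such as the Malpighian (renal) tubule, energises ion transport. Many subunits are encoded by several genes in the fly, and the stalk subunit a is the one known for directing the pump to different membranes.

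Tissue labels were checked with ninaE, the rhodopsin of the outer photoreceptors, and 12 of 72 libraries that contradicted their label were left out. The 26 head libraries kept had 9856 to 27051 FPKM (fragments per kilobase of transcript, scaled to library depth) of ninaE, the 26 of periphery at most 0.633 FPKM and the 8 hearts 20.8 to 86.3 FPKM. The hearts held 721 to 1779 FPKM of Hand, which encodes a cardiac transcription factor. Depth was 210288 to 18588526 reads in head, 6480802 to 21698573 reads in periphery and 7782304 to 23720971 reads in heart. Labelled times are less certain than the tissues. In periphery TRF ZT18, the clock gene tim was at 142 FPKM at week 5 but at 21.7 and 21.8 FPKM at weeks 3 and 7. Periphery ALF ZT18 had 92.5 and 93.5 FPKM at weeks 3 and 7. At ZT12 of these weeks, periphery ALF had 18.4 and 19.8 FPKM and periphery TRF 63.8 and 52.0 FPKM. In head at week 3, tim was at 151 FPKM in ALF ZT18 and 33.3 FPKM in TRF ZT18. In head at week 7, it was at 86.6 FPKM in ALF ZT06 and 224 FPKM in TRF ZT06. Pairing TRF with ALF by labelled ZT is therefore uncertain at weeks 3 and 7 in both tissues. At week 5, tim was at 10.2 FPKM in head TRF ZT15, against 62.8 FPKM in head ALF ZT15 and 55.6 FPKM in periphery TRF ZT15.

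At week 5, 18 of the 33 genes were at 10 FPKM or more in each tissue, 13 were above 2 FPKM in periphery only, and the remaining 2, Vha36-3 and VhaM9.7-a, were under 2 FPKM in heart only. The 18 broadly present genes had mean levels of 21.2 to 393 FPKM in head (n = 13), 15.8 to 399 FPKM in heart (n = 8) and 28.0 to 534 FPKM in periphery (n = 16). The 13 periphery-restricted genes had means of at most 1.56 FPKM in head and 1.77 FPKM in heart, against 2.54 to 66.5 FPKM in periphery. These groups were defined from the levels themselves and are a description. All 7 proteins encoded by 1 gene were in the broad group, and all 13 restricted genes were extra copies of one of the 8 subunits encoded by several genes, each of which also had a broadly present copy. In whole tissue, fewer cells of a type and less RNA per cell cannot be told apart.

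**Figure D1:**
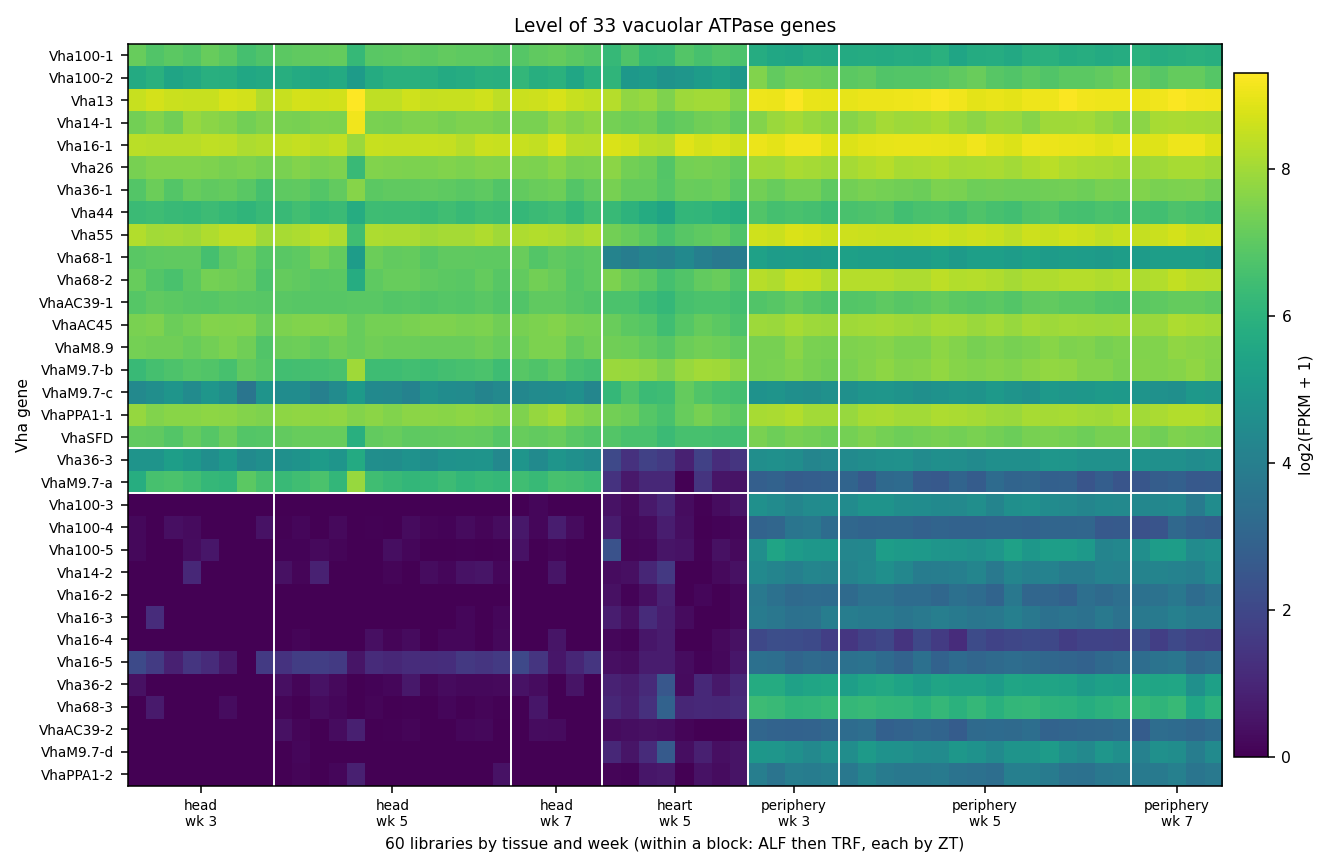
Level of the 33 Vha genes, as log2(FPKM + 1), in the 60 libraries kept, grouped by tissue and week; white lines separate tissues and weeks, and the 18 broadly present, 2 heart-poor and 13 periphery-restricted genes from top to bottom. The lower block is low in head at every age and in heart, sampled at week 5 only, where its highest value was 6.52 FPKM. A single week 5 head column (ALF ZT15) departs from its neighbours.

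Among V1 subunits, the catalytic A subunit had 1 copy present everywhere, Vha68-2, beside which Vha68-1 stood at a like level in head and Vha68-3 was added in periphery. Vha68-1 was at 34.1, 129 and 162 FPKM in head (lowest, median and highest of 13 libraries), at 12.4, 15.5 and 20.2 FPKM in heart and at 32.4, 35.3 and 38.4 FPKM in periphery. Heart libraries were all below the other tissues, and 1 head library, ALF ZT15, lay within the periphery range. Vha68-2 had medians of 127 FPKM in head, 129 FPKM in heart and 301 FPKM in periphery. Vha68-3 (CG5075, dm3 chromosome 2L, 12978786 to 12981293, plus strand) was at 54.4, 67.8 and 75.2 FPKM in periphery, at 0.725 to 6.52 FPKM in heart and at no more than 0.199 FPKM in week 5 heads. It starts 179 bases downstream of Vha68-2 on the same strand, and was the most abundant restricted member.

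The other V1 subunits were led by 1 broad gene each. Vha55, the only B subunit gene, which forms the catalytic head together with A, was at 263 ± 56.0 FPKM in head (SD, n = 13), 126 ± 20.5 FPKM in heart (n = 8) and 373 ± 18.2 FPKM in periphery (n = 16). Vha13 (subunit G, part of the peripheral stalk) was the most abundant member in head and periphery, with medians of 370 and 535 FPKM, and stood at 239 FPKM in heart. Of the remaining stalk and regulatory subunits, Vha26 (E) had means of 173, 156 and 279 FPKM in head, heart and periphery, Vha44 (C) 79.4, 61.1 and 99.2 FPKM, and VhaSFD (H) 128, 94.3 and 163 FPKM. All 5 genes had their highest mean in periphery and their lowest in heart on the deposited scale. That order depends on scaling: Vha44 turned to 0.069 in head against periphery after quantile normalization, and heart minus head was 0.13 for Vha44, 0.13 for VhaSFD and 0.37 for Vha26 after median-of-ratios rescaling, Vha26 being the one of these 3 that passed the test.

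The rotor subunits D and F each had a broad copy and a restricted one. Vha36-1 (D) differed little in level between tissues, at 131 ± 20.8 FPKM in head, 139 ± 17.3 FPKM in heart and 160 ± 8.36 FPKM in periphery. Vha36-2 (CG13167) was at 33.8 to 48.1 FPKM in week 5 periphery and at most 0.510 FPKM in head. Vha36-3 (CG8310, dm3 chromosome X, 2473124 to 2474437) was the one copy shared by head (median 25.9 FPKM) and periphery (23.7 FPKM) but at 0.795 to 3.19 FPKM in heart, so that the heart range lay below both others. For subunit F, Vha14-1 was at medians of 175, 154 and 234 FPKM in head, heart and periphery, while Vha14-2 reached 12.4 to 23.7 FPKM in periphery and no more than 0.828 FPKM in head and 1.94 FPKM in heart.

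In V0, the a subunit showed a reversal between its 2 main copies. Vha100-1 (CG1709, dm3 chromosome 3R, 24956915 to 24963702, plus strand), known in the fly for its role at synapses, was at 74.2, 125 and 138 FPKM in head, 73.6, 99.1 and 110 FPKM in heart and 43.6, 51.8 and 59.3 FPKM in periphery. Every head and heart library was above every periphery library. Vha100-2 ran the other way, at 33.4 to 59.4 FPKM in head, 26.8 to 66.9 FPKM in heart and 108 to 148 FPKM in periphery, with no overlap of periphery with the others. The remaining 3 copies were restricted: Vha100-5 was at 17.5 to 38.8 FPKM, Vha100-3 at 17.6 to 26.5 FPKM and Vha100-4 at 4.99 to 7.61 FPKM in week 5 periphery. None of these 3 exceeded 0.269 FPKM in week 5 heads.

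The proton-carrying ring was built on a single abundant copy per subunit in every tissue. Vha16-1 (c) was the most abundant member in heart, at 307 to 473 FPKM, and was at 236 to 377 FPKM in head and 445 to 554 FPKM in periphery. Its 4 other copies, Vha16-2 to Vha16-5, had periphery means of 2.54 to 12.3 FPKM. Vha16-2 had 0 reads in all 26 head libraries, where 3 reads would be 0.273 FPKM in the deepest library and 24.1 FPKM in the shallowest. VhaPPA1-1 (c'') had means of 203, 136 and 261 FPKM in head, heart and periphery and VhaPPA1-2 12.5 FPKM in periphery, 0.101 FPKM in head and 0.277 FPKM in heart. For the subunit d that joins ring and stalk, VhaAC39-1 had means of 116, 93.7 and 121 FPKM, and VhaAC39-2 of 7.75 FPKM in periphery, 0.142 FPKM in head and 0.158 FPKM in heart.

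For the small membrane subunit e, VhaM9.7-b led in every tissue and the second copy differed between tissues. VhaM9.7-a (CG1268, dm3 chromosome 3L, 4262705 to 4263233) was at 69.8, 77.5 and 234 FPKM in head, 4.48, 6.39 and 8.51 FPKM in periphery and 0, 0.785 and 1.63 FPKM in heart. The 3 ranges did not overlap, and the highest head value was again ALF ZT15. VhaM9.7-b was at medians of 91.9, 235 and 193 FPKM in head, heart and periphery. VhaM9.7-c (CG11589, dm3 chromosome 3L, 4186018 to 4186865) was at 72.7 to 138 FPKM in heart, above every head (15.5 to 32.7 FPKM) and periphery library (24.1 to 32.9 FPKM). VhaM9.7-d was restricted, at 19.8 to 33.3 FPKM in periphery. The accessory proteins were broad: VhaAC45, the Ac45 homologue, had means of 172, 118 and 252 FPKM in head, heart and periphery, and VhaM8.9, the homologue of the mammalian prorenin receptor, 147, 143 and 182 FPKM.

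Expressed as shares of a subunit's summed FPKM within each library, the mix of copies differed between tissues for A, D, a and e, and the leading copy changed for a. Vha68-1 made up 49.9% ± 4.35 of the A subunit RNA in head, level with Vha68-2 (50.1% ± 4.37), and 11.1% ± 2.64 in heart and 8.87% ± 0.370 in periphery (SD, n = 13, 8 and 16). Vha100-1 made up 70.0% ± 2.19 of subunit a in head and 71.5% ± 9.00 in heart but 22.6% ± 1.56 in periphery, where Vha100-2 had 52.9% ± 4.25. VhaM9.7-b made up 47.9% ± 2.68 of subunit e in head, 69.7% ± 3.99 in heart and 76.5% ± 1.91 in periphery. Next came VhaM9.7-a with 41.7% ± 3.22 in head, and VhaM9.7-c 29.6% ± 4.04 in heart against 10.4% ± 1.96 in head and 10.98% ± 1.16 in periphery. In periphery the restricted copies together added to a minority of each subunit: 16.6% ± 1.29 of A for Vha68-3, 17.7% ± 1.39 of D for Vha36-2 and 9.98% ± 1.37 of e for VhaM9.7-d. For subunit a, Vha100-3, Vha100-4 and Vha100-5 had means of 21.8, 6.76 and 28.3 FPKM, where all its copies summed to 232 FPKM. The leading copies of F, c, c'' and d held 93.4% to 95.4% of their subunit in periphery and more than 99% in head and heart. A share within a library does not change with the scaling of that library.

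**Figure D2:**
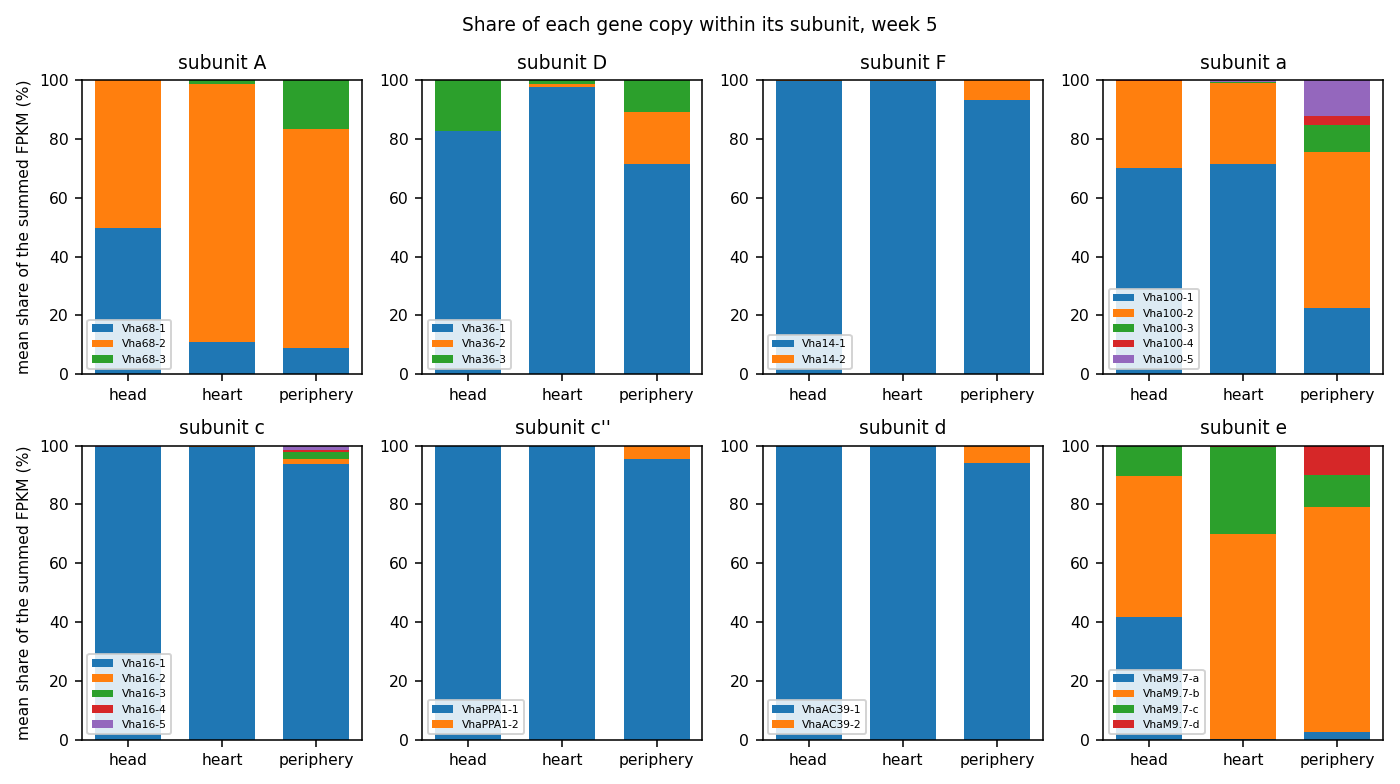
Mean share, in percent, of each gene copy in the summed FPKM of its subunit at week 5, in head (n = 13), heart (n = 8) and periphery (n = 16), for the 8 subunits encoded by several genes; the SD of the shares discussed stands in the text. Head and heart resemble each other for subunit a, heart and periphery for subunit A, and each tissue has its own mix for subunits D and e.

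Tissues were tested with limma on log2(FPKM + 1) with ZT as a block, and most genes differed between them. The 13 restricted genes entered these fits through their levels in periphery, by which they are grouped, so their calls are not counted and their differences are given as a description. Of the other 20 members, 18 passed an adjusted p of 0.05 between head and periphery, where 79.7% of all 12287 genes tested passed. Higher in head were 3 (background 35.3%) and lower 15 (background 44.4%), with a median difference of -0.35 over the 20 members and -0.09 over all genes. VhaM9.7-a was higher in head by 3.61 (SE 0.14, limma adjusted p = 1.25e-20), Vha68-1 by 1.74 (SE 0.13, adjusted p = 9.02e-14) and Vha100-1 by 1.24 (SE 0.07, adjusted p = 2.78e-16). Among broad genes Vha68-2 (-1.30) and Vha100-2 (-1.24) were lower in head by more than 1 on this scale. The restricted genes had differences as large as -5.9998 (Vha68-3) and -5.09 (Vha36-2), which are understated, since 1 FPKM was added to values near 0. Vha36-3 (0.16, adjusted p = 0.161) and VhaAC39-1 (-0.04, adjusted p = 0.391) did not pass.

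Between heart and periphery 19 of the 20 passed, where 81.0% of all genes did. Higher in heart were 2 (background 16.4%) and lower 17 (background 64.7%), with a median of -0.86 over the 20 members and -0.61 over all genes. Among the 20 in every heart comparison are Vha36-3 and VhaM9.7-a. These 2 were grouped by their low level in heart, so their calls there restate that grouping. VhaM9.7-c was higher in heart by 1.76 (SE 0.11, limma adjusted p = 2.44e-15) and Vha100-1 by 0.81 (SE 0.09, adjusted p = 1.56e-09). Among broad genes Vha100-2 (-1.80), Vha55 (-1.63), Vha68-2 (-1.28), Vha13 (-1.19), Vha68-1 (-1.18) and VhaAC45 (-1.12) were lower in heart by more than 1, as were Vha36-3 (-3.11) and VhaM9.7-a (-2.07). VhaM9.7-b missed the threshold (0.22, adjusted p = 0.0788).

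Between heart and head 16 of the 20 passed, where 78.2% of all genes did, with 3 higher in heart (background 31.1%) and 13 lower (background 47.0%). Vha36-3 and VhaM9.7-a, grouped by their low level in heart, are again among the 13 lower. The median was -0.44 over the 20 members and -0.21 over all genes. VhaM9.7-c (2.16, SE 0.12, limma adjusted p = 1.63e-16) and VhaM9.7-b (1.20, SE 0.12, adjusted p = 5.23e-10) were the broad genes highest in heart relative to head. VhaM9.7-a (-5.68), Vha36-3 (-3.27), Vha68-1 (-2.92) and Vha55 (-1.10) were lower in heart by more than 1. Vha16-1, the third gene higher in heart, differed by 0.18, and by -0.0399 after quantile normalization. The restricted genes had means of at most 1.77 FPKM in both tissues, and no direction is drawn for them. The split of the 20 depends on scaling: it was 8 higher and 4 lower after median-of-ratios rescaling, which moved the median of all genes to 0.24, and 2 higher and 15 lower after quantile normalization, which moved it to 0.11.

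Rescaling also touched the other 2 tissue comparisons, though not the genes with the largest differences. Quantile normalization moved the median of all genes to 0.46 for head against periphery and gave 5 of the 20 members higher and 7 lower, and to 0.41 for heart against periphery with 3 higher and 14 lower. Median-of-ratios rescaling moved these medians to -0.18 (3 higher, 16 lower) and -0.24 (4 higher, 12 lower). Against periphery, Vha14-1, Vha36-1, Vha44, VhaM8.9 and VhaPPA1-1 changed sign in head under quantile normalization, and Vha16-1, Vha36-1, VhaAC39-1 and VhaM8.9 did in heart under median-of-ratios rescaling, so no direction is drawn for these in the comparison named. Vha100-1, Vha68-1 and VhaM9.7-a in head, and VhaM9.7-c in heart, were called in the same direction against periphery under every setting tried.

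The 12 libraries left out by ninaE give a further reading of the same genes, since the Vha levels played no part in leaving them out. In the 6 labelled head that lacked ninaE, Vha68-3 was at 43.7 to 76.9 FPKM, Vha36-2 at 22.3 to 53.2 FPKM and Vha100-5 at 20.2 to 29.1 FPKM, within or near the periphery ranges. VhaM9.7-a was at 3.80 to 7.41 FPKM in the same 6. In the 6 labelled periphery with high ninaE, VhaM9.7-a was at 66.2 to 98.3 FPKM and Vha68-1 at 93.8 to 137 FPKM, while Vha68-3 was at no more than 0.294 FPKM. The values of the 13 restricted genes ran from 1.51 to 76.9 FPKM in the first 6 libraries and from 0 to 1.99 FPKM in the second 6.

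Several copies lie side by side on the chromosome and still differ in level. Vha100-4 lies 520 bases from Vha100-2 on chromosome 3R, yet in week 5 periphery their means were 6.76 and 123 FPKM, and in head 0.0987 and 52.5 FPKM. VhaPPA1-2 lies 2049 bases from VhaPPA1-1, and Vha68-3 179 bases from Vha68-2, in each case a restricted beside a broad gene. Vha16-2 and Vha16-3, 986 bases apart on chromosome 3L, are both restricted, at 8.76 ± 1.49 and 12.3 ± 1.55 FPKM in periphery. How reads matching several copies were counted is not given in the sources used here.

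The libraries are unstranded, so reads of members that overlap another gene cannot be told apart from that gene's. Vha100-5 overlaps the noncoding gene CR44144 on the opposite strand, which was listed at 20.4 ± 5.07 FPKM in periphery and 0.0824 FPKM in head, and Vha100-4 overlaps cona (12.9 ± 2.23 FPKM in periphery). Vha100-2 overlaps CG44009, which was at 28.6 ± 13.0 FPKM in head, 47.3 ± 5.65 FPKM in heart, above the 36.3 FPKM of Vha100-2 there, and 20.1 ± 2.86 FPKM in periphery. Vha44 overlaps Hmgs, at 217 ± 50.5 FPKM in heart, and Vha100-1 overlaps CG14512, at 4.72 to 5.41 FPKM by mean in the 3 tissues. The 2 genes that overlap VhaM9.7-c, CG18675 and Teh2, were at 1.64 and 2.10 FPKM in heart, where VhaM9.7-c was at 96.9 FPKM.

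In heart, restricted and broad genes stood high or low in 2 libraries that also held transcripts of other organs. Of the 18 broad genes, 9 had their highest heart value in ALF ZT00, among them Vha55 (161 FPKM), Vha68-2 (175 FPKM), Vha13 (306 FPKM) and Vha26 (206 FPKM), where 8.41% of the 4850 genes at 10 FPKM or more did. In ALF ZT18, 15 of the 18 had their lowest value, where 7.09% of those genes did. Vha100-5 was at 4.14 FPKM in ALF ZT00 and at 0.028 to 0.439 FPKM in the other 7 hearts, and Vha100-2 at 66.9 FPKM against 26.8 to 39.4 FPKM. ALF ZT00 also had the highest summed level of the 3 Malpighian tubule markers, 235 FPKM, with 116 FPKM in TRF ZT12 and 5.39 to 16.6 FPKM in the other 6. Urate oxidase (Uro) was at 162 FPKM in ALF ZT00 and 101 FPKM in TRF ZT12, where Vha100-5 was at 0.320 FPKM, and the channel gene Irk2 at 66.8 and 8.87 FPKM.

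Vha68-3, Vha36-2 and VhaM9.7-d were at 6.52, 4.73 and 5.24 FPKM in heart ALF ZT18 and at most 1.48, 1.15 and 1.19 FPKM in the other 7. The 7 testis markers summed to 327 FPKM in ALF ZT18 and to 34.4 to 99.0 FPKM in the others, with none at 0 in all hearts. Testis markers summed to 1322 to 2259 FPKM in periphery and to 0 to 12.2 FPKM in head. The part of tubule and testis RNA in these heart values was not tested. Without ALF ZT00 and ALF ZT18, the 20 members that are not restricted had 3 calls higher and 12 lower between heart and head, Vha14-1 being lost (limma adjusted p = 0.101), and 2 higher and 17 lower between heart and periphery.

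**Figure D3:**
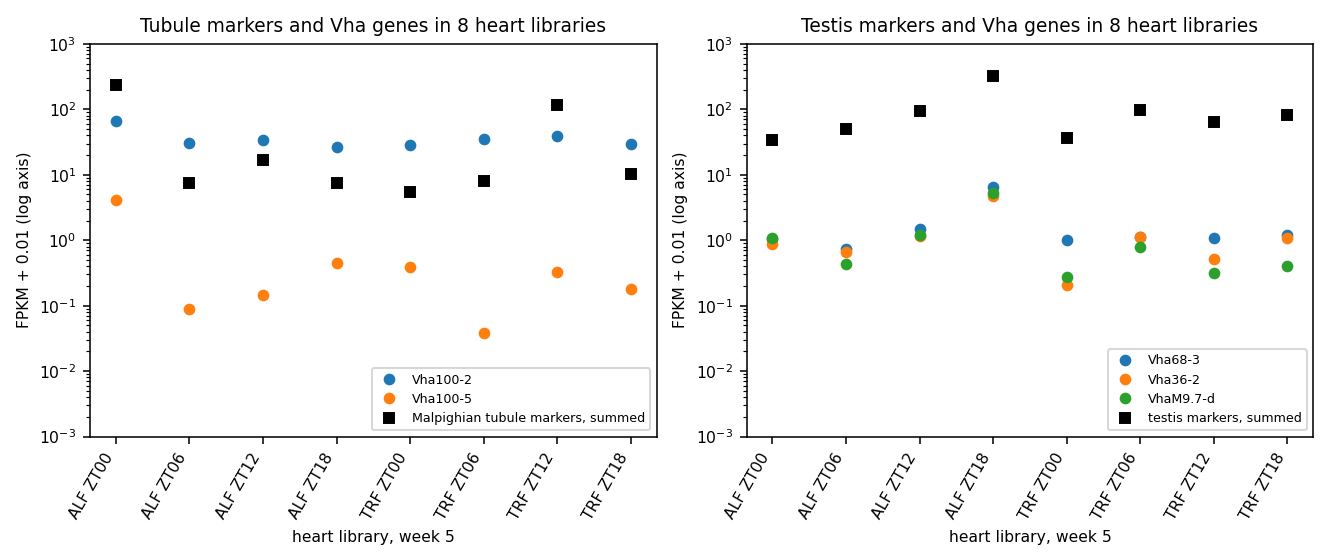
FPKM plus 0.01, on a log axis, in each of the 8 week 5 heart libraries: left, Vha100-2 and Vha100-5 with the summed Malpighian tubule markers; right, Vha68-3, Vha36-2 and VhaM9.7-d with the summed testis markers. Vha100-5 peaks in ALF ZT00 (4.14 FPKM) and the genes on the right in ALF ZT18 (4.73 to 6.52 FPKM), as do the markers in each panel.

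By median, the broad members varied less between libraries of a tissue than all genes at 10 FPKM or more, though only slightly less in heart. In week 5 periphery their coefficients of variation over 16 libraries ran from 4.23% (VhaAC45) to 10.5% (Vha14-1), with a median of 6.42% against 12.4% over the 7564 genes at 10 FPKM or more. In head the median was 16.4% over 13 libraries and 5.46% over the 12 without ALF ZT15, against 22.1% and 11.9% over all such genes. Over the 13, members ran from 3.83% (VhaAC39-1) to 52.2% (Vha14-1). In heart the median was 15.9% against 17.5%, with members from 9.68% (VhaSFD) to 35.9% (Vha100-2). These spreads include any effect of feeding and ZT, and the genes compared were not matched by level.

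The head library ALF ZT15 stood apart by transcript length. Relative to the median of the other 12 week 5 heads, the 5 members with transcripts under 1000 bases were 1.57 to 3.20 times as high, and the 9 with 2000 bases or more 0.263 to 0.660 times. Vha14-1 (652 bases) was at 555 FPKM, where the others were at 166 to 182 FPKM. Vha55 (2042 bases) was at 87.3 FPKM, where the others were at 251 to 327 FPKM. Over all genes at 10 FPKM or more the median ratio was 2.22 for short and 0.451 for long transcripts, and 18 of the 20 members present in head (the 18 broad genes, Vha36-3 and VhaM9.7-a) lay outside the range of the other 12.

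**Figure D4:**
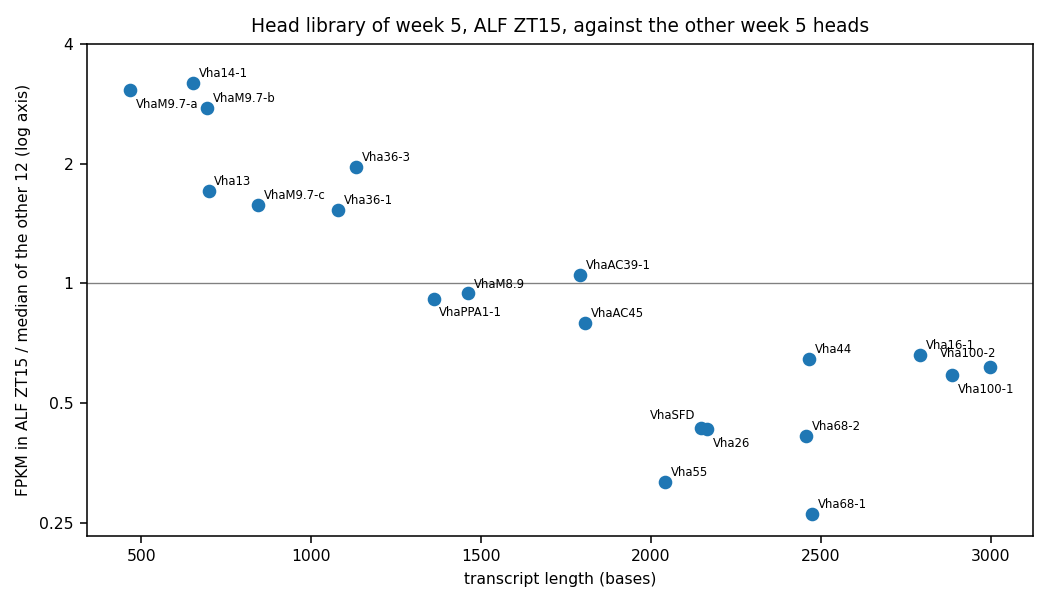
Ratio of FPKM in the head library ALF ZT15 to the median of the other 12 week 5 head libraries (log axis) against transcript length in bases, 1 point per gene, for the 18 broadly present and the 2 heart-poor Vha genes. Points fall from 3.06 for VhaM9.7-a and 3.20 for Vha14-1 to 0.263 for Vha68-1.

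Whether TRF changed the pump was tested within each tissue and week, and no member passed in any of 7 comparisons. In head, 0 of 21 members were called at weeks 3, 5 and 7 (background 0% of 9879 genes, with 751, 140 and 309 at an unadjusted p under 0.05). In periphery, 0 of 33 were called at weeks 3, 5 and 7 (background 0%, 0% and 0.167% of 12002 genes, with 746, 628 and 1903 at an unadjusted p under 0.05), and in heart 0 of 22 (background 0% of 9726, with 636). In periphery at week 5, where 8 pairs were complete, the differences ran from -0.17 to 0.20 over all 33 members. Limma-voom on reads recovered from the FPKM values called no member either.

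The members nearest to the threshold under TRF are given as values that did not pass. In periphery at week 5, Vha36-3 had a mean of 22.8 ± 1.56 FPKM under ALF, against 25.3 ± 1.87 FPKM under TRF (SD, n = 8 each), a difference of 0.15 (SE 0.05, limma adjusted p = 0.873), and was higher in 7 of 8 pairs. At week 3 the same gene was lower under TRF in both pairs (-0.32, SE 0.10, adjusted p = 0.753). VhaM9.7-c (0.15) and Vha14-2 (-0.17) came next at week 5, and VhaPPA1-1 (-0.17) and Vha13 (-0.17) at week 3.

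In periphery at week 7, Vha36-2 was at 45.7, 43.4 and 44.9 FPKM in ALF ZT06, ZT12 and ZT18 and at 24.4 and 38.1 FPKM in TRF ZT12 and ZT18. The TRF libraries were both below the ALF ones, with a difference of -0.52 (SE 0.16, limma adjusted p = 0.235). Ranges lay apart in this direction for 5 of 33 members and 16.6% of 12002 genes, and in the other for 1 member and 7.88%. Vha68-3 (-0.43, SE 0.13, adjusted p = 0.235) and Vha16-5 (-0.38, SE 0.14, adjusted p = 0.268) were also lower in both pairs. In the same TRF libraries the summed testis markers were at 1322 and 1877 FPKM, against 1915 to 2061 FPKM in ALF, and their part in these values was not tested. Without ZT12 the difference was -0.23 for Vha36-2 and -0.29 for Vha68-3.

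In head at week 7, 8 of 21 members were lower in both TRF libraries than in all 3 ALF libraries, and none was higher in both. Over all 9879 genes 16.5% were lower and 6.23% higher in this way, and none passed the test. Vha16-1 had means of 385 ± 46.7 FPKM under ALF and 310.4 ± 1.27 FPKM under TRF (SD), VhaSFD of 138 ± 5.72 and 115 ± 8.40 FPKM and Vha13 of 398 ± 23.6 and 351 ± 20.01 FPKM. In head at weeks 3 and 5 the ranges of ALF and TRF overlapped for every member tested. At head week 5, VhaM9.7-a (-0.37, SE 0.21), Vha100-2 (0.17, SE 0.13) and Vha26 (0.20, SE 0.15) had the smallest p values (limma adjusted p = 0.906 each). Without ALF ZT15 they were -0.10, 0.08 and 0.01. At head week 3 these were Vha16-5 (-0.67), Vha36-3 (-0.28) and Vha68-2 (0.25), and at week 7 Vha100-2 (-0.27), Vha16-1 (-0.20) and Vha16-5 (-0.51), from 4 and 2 pairs.

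In heart, Vha100-1 was at 74.7, 107, 73.6 and 78.5 FPKM in ALF and at 110, 96.4, 109 and 102 FPKM in TRF (ZT00, ZT06, ZT12 and ZT18). It was higher under TRF at 3 of 4 times, by 0.34 on average (SE 0.15, limma adjusted p = 0.708). Vha16-1 (0.23) and VhaM9.7-c (0.34) followed with the same adjusted p and were higher under TRF at 4 of 4 times, although their ranges overlapped. Lower at 4 of 4 times were 7 restricted genes, with means of at most 0.862 FPKM under ALF, which were too low to be tested. Vha16-3 (0.718 and 0.083 FPKM) and VhaAC39-2 (0.276 and 0.0395 FPKM under ALF and TRF) were the 2 of them whose ranges did not overlap. They rest on 4 to 16 and 4 to 9 reads per library under ALF, and 0 or 1 under TRF. Among the 9726 genes at 1 FPKM or more, 1.51% lay below in this way, and 0 of the 22 members tested. No share was taken over genes at lower levels, so no direction is drawn for these 7. Without ALF ZT00 and ZT18 the differences were 0.21 for Vha100-1, 0.23 for Vha16-1 and 0.16 for VhaM9.7-c.

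**Figure D5:**
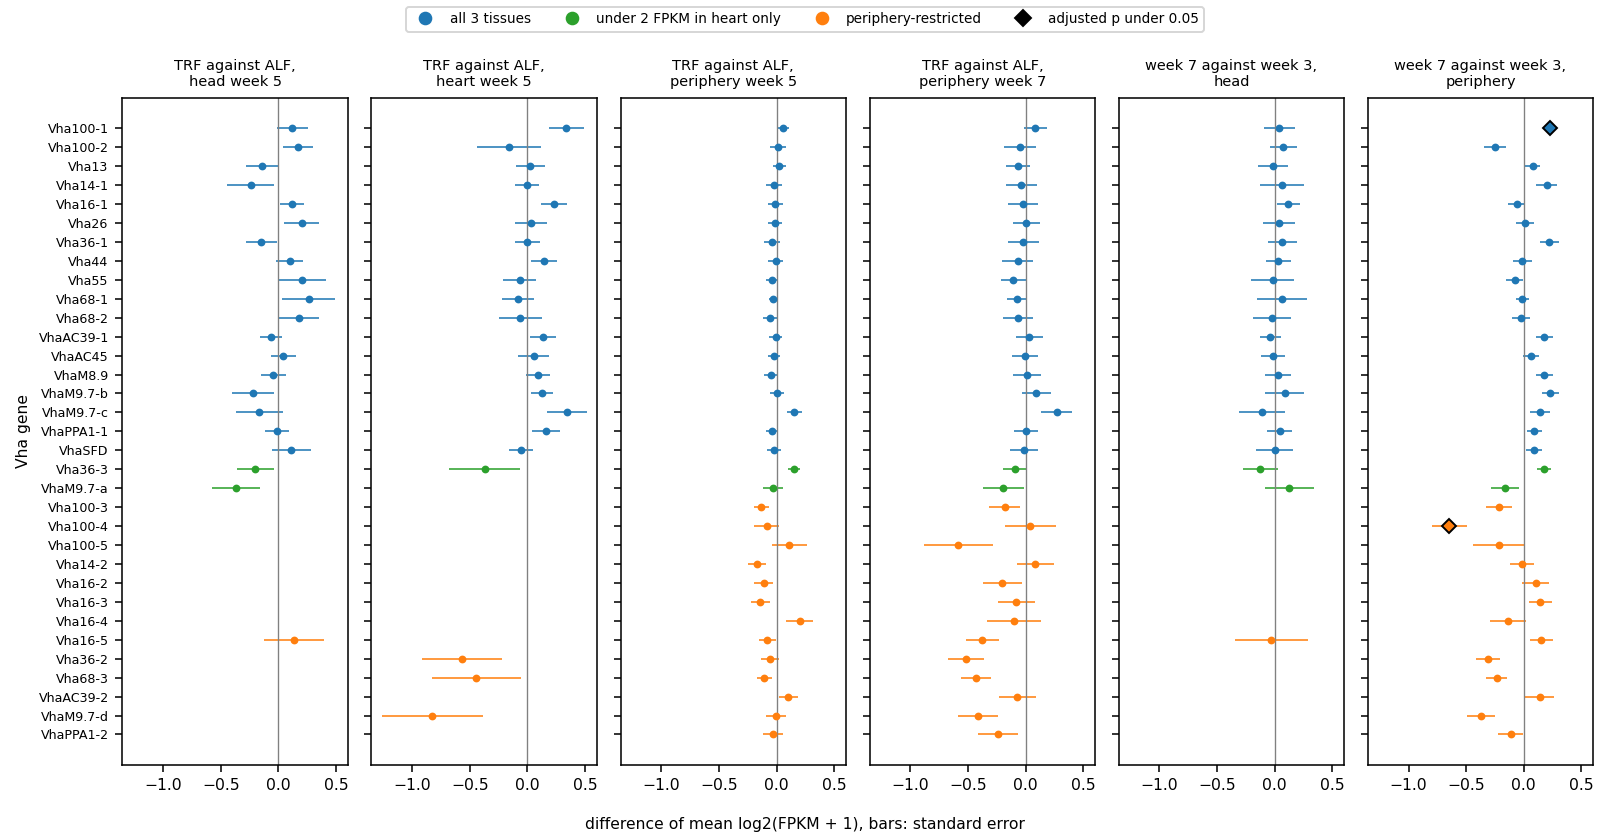
Difference of mean log2(FPKM + 1) with its standard error for each Vha gene tested, under TRF against ALF in 4 tissue and week combinations and at week 7 against week 3 in head and periphery; diamonds mark limma adjusted p under 0.05. Only Vha100-4 (-0.65) and Vha100-1 (0.23) carry a diamond, both with age in periphery.

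With age, 2 members passed between weeks 7 and 3 in periphery and none in head. Week and any batch of the libraries cannot be told apart. In head, 0 of 21 members were called at week 7 (background 0% of 9879 genes, 360 at an unadjusted p under 0.05) and 0 at week 5 (background 0.0709%, with 0.0304% higher and 0.0405% lower, 947 at an unadjusted p under 0.05), both against week 3, and limma-voom called no member in either. Head differences from week 3 to week 7 ran from -0.13 (Vha36-3) to 0.13 (VhaM9.7-a), with Vha16-1 (0.12) and Vha100-2 (0.08) the other genes with the smallest p. At week 5 these were Vha16-1 (0.18), VhaM9.7-b (-0.22) and Vha44 (0.13).

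The split between broad and restricted genes was present at each age. The restricted genes summed to at most 4.40 FPKM in any head library, and to 258 to 300.9 FPKM in periphery at week 3, 224 to 292 FPKM at week 5 and 191 to 290.2 FPKM at week 7. In head, Vha68-1 had means of 124 ± 16.5 FPKM at week 3 (SD, n = 8), 126 ± 29.8 FPKM at week 5 (n = 13) and 126 ± 11.8 FPKM at week 7 (n = 5), and VhaM9.7-a of 87.5 ± 21.2, 90.5 ± 43.9 and 86.3 ± 7.35 FPKM. In periphery, Vha68-3 had means of 73.9 ± 6.74, 66.5 ± 6.17 and 65.2 ± 12.5 FPKM (n = 5, 16 and 5). The ranges at the 3 ages overlapped for each of these genes.

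In periphery at week 7 against week 3, 2 of 33 members were called, where 11.6% of 12002 genes were. One was higher at week 7 (background 9.06%) and the other lower (background 2.55%). Vha100-4 (CG7678, dm3 chromosome 3R, 14212555 to 14215525) was at 6.71, 7.44, 11.2, 12.3 and 8.87 FPKM at week 3 and at 4.01, 4.32, 7.74, 6.30 and 5.76 FPKM at week 7, each as ALF ZT06, ZT12, ZT18 and TRF ZT12, ZT18. Vha100-4 had 87 to 412 reads in each of the 26 periphery libraries. It was lower at week 7 in each of the 5 matched libraries although the ranges overlapped, and fell by 0.65 (SE 0.15, limma adjusted p = 0.0135). Vha100-1 was at 43.7 to 53.7 FPKM at week 3 and 53.4 to 60.2 FPKM at week 7, a rise of 0.23 (SE 0.06, adjusted p = 0.0261). The ranges of Vha100-1 overlapped by 1 library at each age. Neither gene was called without ZT12 or with all libraries as labelled, and Vha100-1 was not called without ZT18 (adjusted p = 0.198), after median-of-ratios rescaling (0.087) or after quantile normalization (0.0838). The direction split of the calls depends on scaling: after median-of-ratios rescaling 4 members were called, all lower at week 7 (Vha100-4, Vha36-2, Vha68-3 and VhaM9.7-d), and after quantile normalization 3, again all lower. The count of members called ran from 0 without ZT12 to 4 without ZT18.

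Against week 3, 1 member was called at week 5 in periphery, where 5.45% of genes were, 5.00% as higher and 0.450% as lower. VhaM9.7-b was at 154, 166 and 185 FPKM at week 3 (lowest, median and highest of 5) and at 170, 193 and 222 FPKM at week 5 (of 16), a rise of 0.28 (SE 0.07, limma adjusted p = 0.0329). It was not called without ZT06, ZT12 or ZT18 (adjusted p 0.12 to 0.299), when the count was 0, nor after median-of-ratios rescaling (adjusted p = 0.0995), when Vha100-2 was the 1 member called, as lower at week 5 (-0.38, adjusted p = 0.0415). In the fit of head change minus periphery change, Vha100-4 was the 1 member called (0.85, SE 0.19, limma adjusted p = 0.0244), where 0.754% of 12341 genes were and 0.243% in this direction. In heads Vha100-4 was at or near 0 (mean 0.148 FPKM, 8 of 26 libraries at 0), and it entered the fit through periphery, so this value restates the fall in periphery and shows no difference in ageing between tissues. The call was lost without ZT00, ZT06 or ZT12, with a pseudocount of 0.1 and by limma-voom.

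No member had a 24 h rhythm past the threshold in any of 7 fits, and none passed for a difference in rhythm between feeding types. The tests of a difference called no gene in head or periphery, so they cannot show that rhythms were alike. Head rhythm fits called no gene either, although the clock gene tim ran from 10.2 to 314 FPKM over the week 5 heads. A lack of calls there does not show a lack of rhythm. In periphery over both feeding types 0 of 33 were called (background 0.242% of 11991 genes). The 3 members with the smallest p, none of which passed, were genes of subunit a. Vha100-5 had means of 23.6 FPKM at ZT00, 34.3 FPKM at ZT09 and 21.9 FPKM at ZT21, with a fitted amplitude of 0.35 and peak at 9.26 h (limma adjusted p = 0.102). Vha100-3 peaked at 5.16 h (amplitude 0.17, adjusted p = 0.0893) and Vha100-2 at 20.4 h (amplitude 0.14, adjusted p = 0.111). Vha100-3 was the 1 member called when ZT00 was left out (adjusted p = 0.0376).

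In the other rhythm fits at week 5 the counts were 0 as well. In periphery under ALF (background 0.0167%), Vha14-2 had the smallest p (amplitude 0.27, limma adjusted p = 0.308), and under TRF (background 0%) Vha100-5 (0.44, adjusted p = 0.339). In head (background 0% over both feeding types, ALF alone and TRF alone) the smallest p belonged to Vha36-3 (0.22), Vha16-5 (0.51) and VhaM9.7-c (0.28), with adjusted p of 0.869, 0.857 and 0.621. In heart (background 0%), VhaPPA1-1 (0.28, adjusted p = 0.436) and Vha44 (0.30, adjusted p = 0.462) peaked at 4.31 and 3.43 h. In the tests of a difference in rhythm between feeding types (background 0% in both tissues), Vha16-5 led in head (adjusted p = 0.886) and Vha100-5 in periphery (adjusted p = 0.969).

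Genes that work with the pump were read against the shares of all genes called, 35.3% higher and 44.4% lower in head and 16.4% higher and 64.7% lower in heart, each against periphery. All 5 genes listed as vesicular transporters, VGlut, VAChT, Vmat, VGAT and prt, were higher in head than in periphery (2.19 to 3.34), with a median of 3.17. In heart all 5 were lower than in periphery, with a median of -0.97 where the median over all genes was -0.61. Of the assembly factors, Rbcn-3A (the homologue of a rabconnectin) was higher in head than in periphery by 0.70, and Rbcn-3A and Rbcn-3B were lower in heart than in periphery (differences of -1.28 and -1.30). Of 5 Rag and TORC1 genes, which sense nutrients at the lysosomal surface, Tor (0.28) and raptor (0.47) were higher in head than in periphery and lower in heart (-0.28 and -0.30, both above the median of all genes). Not every assembly factor or Rag and TORC1 gene is described in both tissues, so no direction is drawn for either list.

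Of 13 lysosomal genes tested, 6 were higher and 4 lower in head than in periphery, near the shares of all genes, and 9 were higher and 3 lower in heart than in periphery, with a median of 0.54 in heart where the median over all genes was -0.61. Cp1 (cathepsin L) at 2.30 and Hexo2 at 1.95 were among those higher in heart. Of 12 partners in epithelial ion transport, 9 were lower and 2 higher in heart than in periphery, near the shares of all genes. The median was -1.90, and among those lower were the exchanger gene Nha1 (-3.85), the channel gene Irk2 (-3.72) and the carbonic anhydrase gene CAH2 (-2.14). At week 7 against week 3 in periphery, cathD (0.35) and Npc2a (0.70), both lysosomal, prt (0.88) and RagA (0.34) were among the 7 of 37 genes of these lists that were called, where 11.6% of all genes were. None of these lists had a member called under TRF in any of the 7 comparisons.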

How the data were processed

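RNA was measured in 72 libraries by unstranded polyA+ RNA-seq, per the labels. The authors deposited FPKM values (fragments per kilobase of transcript, scaled to library depth) for 29260 RefSeq transcripts. The submitters' processing notes name the build dm3 and 3 tools whose roles are not stated: HOMER, STAR 2.2.0c and CASAVA 1.8.2. How reads that match several genes were counted is not given in the sources used here. Coordinates are dm3, as in the deposited table. Libraries labelled head with ninaE under 1000 FPKM (6) and labelled periphery above it (6) were left out, which leaves 60.

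Low FPKM values fell on steps of whole reads (100% within 0.03 reads), which gave each library's total, taking the largest step that matched. The shallowest library, head week 3 TRF ZT12 (210288 reads), held as few as 2 reads of a broad member, and this limits head at week 3.

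The deposited values were transformed to log2(FPKM + 1) and tested with limma 3.58.1 under R 4.3.3, using empirical Bayes with a trend. A gene entered a fit if its mean there reached 1 FPKM, with Benjamini-Hochberg adjustment over all genes tested and a threshold of 0.05. Differences are on the log2(FPKM + 1) scale. ZT was a block, because libraries of different groups share it in the labels. Whether head and periphery libraries came from the same flies is not stated. TRF was compared with ALF within a tissue and week, with all weeks sharing the spread. Rhythms were a cosine and sine of 24 h. There is 1 library per combination, so p-values measure only the spread between these libraries.

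Members, gene lists and tests were chosen with earlier results of these data known. Named are all members past the threshold in age comparisons, the largest of them between tissues, and, where none passed, those with the smallest unadjusted p. Figures used python 3.11.15 and matplotlib 3.10.9. Alternatives were pseudocounts of 0.1 and 5, no filter and a minimum of 5 FPKM, median-of-ratios and quantile scaling, the mean over a gene's transcripts, limma-voom on recovered reads, no ZT block, leaving out each ZT, all libraries as labelled and, chosen after the data were seen, leaving out libraries that stood apart. The test was tried on simulated data first.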

Additional observations from a re-analysis of the deposited data

Results flagged for a closer look

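Groups were 4 to 8 libraries of the same tissue, week and feeding type. The most extreme value of each member with a mean of 1 FPKM or more in a group was tested, which gave 193 sets. In 26 sets that value was farther from the rest than Dixon's 95% limit allows, where chance gives about 1 in 20 sets. Of these 26 values, 15 belong to the week 5 head library ALF ZT15. The transcripts that were high there were Vha13 (631 FPKM), Vha14-1 (555 FPKM), VhaM9.7-b (249.9 FPKM), VhaM9.7-a (234 FPKM), Vha36-1 (196 FPKM), Vha36-3 (50.9 FPKM) and VhaM9.7-c (32.7 FPKM). Those that were low were Vha16-1 (236 FPKM), Vha55 (87.3 FPKM), Vha26 (78.2 FPKM), Vha100-1 (74.2 FPKM), VhaSFD (58.2 FPKM), Vha68-2 (53.1 FPKM), Vha44 (52.6 FPKM) and Vha68-1 (34.1 FPKM). The cause of the length pattern in this library was not tested.

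In the other heads, Vha13 was high at week 3 ALF ZT06 (414 FPKM, the next value being 372 FPKM) and VhaSFD at week 3 TRF ZT06 (145 FPKM, next 115 FPKM). Vha26 was low at week 3 ALF ZT00 (166 FPKM, next 184 FPKM), VhaAC45 at week 3 TRF ZT18 (144 FPKM, next 187 FPKM) and Vha16-1 at week 5 TRF ZT15 (316 FPKM, next 358 FPKM). In periphery, Vha16-3 was high at week 5 TRF ZT03 (15.1 FPKM, next 12.4 FPKM).

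In heart, Vha100-1 was high at ALF ZT06 (107 FPKM, the next ALF value being 78.5 FPKM), where all 4 TRF hearts were at 96.4 FPKM or more. Vha100-5 was high at ALF ZT00 (4.14 FPKM, next 0.439 FPKM). Vha68-3 (6.52 FPKM, next 1.48 FPKM), VhaM9.7-d (5.24 FPKM, next 1.19 FPKM) and Vha36-2 (4.73 FPKM, next 1.15 FPKM) were high at ALF ZT18. The tubule and testis markers of these libraries are given with the heart results, and their part was not tested.

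For Vha100-4, the change from week 3 to week 7 in head minus that in periphery was 0.85 (limma adjusted p = 0.0244). The gene lies near 0 in head and entered the fit through periphery, so this value restates the fall in periphery.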

How the results depend on the processing

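Counted over all 33 members, 31 were called in head against periphery, 32 in heart against periphery and 26 in heart against head, restricted genes included. Across all alternatives, 381 of 405 counts of Vha genes called were within 1.5 times the reported count, and 24 were not. Of 2658 values for named genes, 2552 kept direction and call, 73 lost the call, 1 gained it and 32 changed sign. Under TRF no member was called in any of 116 alternatives, and in rhythm none in 147 of 148. With all libraries as labelled the count was 16 for heart against head and 0 for the age changes in periphery at weeks 7 and 5 and for their difference from head. For week 7 against week 3 in periphery it was 4 after median-of-ratios scaling, 4 with no replicate block by ZT and 0 to 4 leaving out 1 ZT. For week 5 it was 2 with a pseudocount of 0.1, 3 with a minimum of 5 FPKM, 2 by limma-voom, 4 with no replicate block by ZT and 0 to 2 leaving out 1 ZT. For the difference between tissues it was 0 with a pseudocount of 0.1, a minimum of 5 FPKM or limma-voom, 2 after median-of-ratios scaling and 0 to 1 leaving out 1 ZT. For the periphery rhythm it was 0 to 1.

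Signs turned in head against periphery after quantile normalization for Vha14-1 (0.0361), Vha36-1 (0.017), Vha44 (0.069), VhaM8.9 (0.0256) and VhaPPA1-1 (0.0321). In heart against periphery they turned after median-of-ratios scaling for Vha16-1 (0.15), Vha36-1 (0.27), VhaAC39-1 (0.0889) and VhaM8.9 (0.12), and after quantile normalization for Vha36-1 (0.026). In heart against head they turned after median-of-ratios scaling for Vha100-1 (0.15), Vha100-2 (0.0147), Vha14-1 (0.28), Vha44 (0.13), VhaAC39-1 (0.24) and VhaSFD (0.13), and after quantile normalization for Vha100-4 (-0.21) and Vha16-1 (-0.0399). With libraries as labelled they turned for Vha100-3 (-0.39), Vha100-4 (-0.38), Vha100-5 (-0.54), Vha16-2 (-0.32), Vha16-3 (-0.37), Vha36-2 (-0.23), Vha68-3 (-0.0226) and VhaPPA1-2 (-0.46). Under TRF in head at week 7 they turned for Vha100-2 (0.11 as labelled and, leaving out 1 ZT, -0.65 without ZT06 to 0.11 without ZT00) and Vha16-5 (0.50 as labelled, -1.04 without ZT06 to 0.022 without ZT00). In head with age they turned for Vha36-3 at week 7 without ZT06 (0.0132) and for VhaM9.7-b at week 5 as labelled (0.0816). The cause was not tested. Depth limits head at week 3, and 1 library per combination limits every TRF test.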
